A study of Mus musculus with 8 samples.

Results

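Chemokines are small secreted proteins that form gradients along which leukocytes move, and chemokine receptors are the G-protein-coupled receptors that read those gradients. The ligands fall into CC, CXC, XC and CX3C families by the spacing of their first cysteines. Atypical receptors bind the same ligands without coupling to G proteins and clear or redistribute them. In skin, keratinocytes make some chemokines constitutively and others under inflammatory stimuli, and dermal fibroblasts, vessels and resident leukocytes make others.

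The genes described here are those whose symbol in the expression tables is a Ccl, Cxcl, Ccr, Cxcr or Ackr gene followed by its number, or Xcl1, Xcr1, Cx3cl1 or Cx3cr1. The symbols were taken without regard to measured values, and where a symbol had several loci the one with the largest summed FPKM was kept. They were 57 genes among 26457 loci of unperturbed keratinocytes, 61 among 47990 loci of skin 4 days after hair plucking and 61 among 46726 loci of wounds at day 30, and 56 symbols were shared by all 3 tables. The table of unperturbed cells lists Ackr3 under its older symbol Cxcr7. It lists Ackr1, Ackr2 and Ackr4 as Darc, Ccbp2 and Ccrl1, which the rule did not take. In the other tables Ackr1 shares a locus with Cadm3, so the rule did not take it.

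The mice were C57BL/6 and either JunB +/+ (WT) or JunB -/-, where JunB, an AP-1 transcription factor, was deleted by a Cre recombinase under the K14 promoter (JunB cKO). Deletion was therefore directed to basal epidermal progenitors and their progeny, and other skin cells kept the gene. RNA of 3 samples was pooled per group before sequencing, so each table holds 1 value per genotype and gene, in FPKM (fragments scaled to transcript length and to the mapped reads of the library). The labels name 1 library per genotype for untreated keratinocytes, 1 for depilated skin and 2 for wounds, whose values the table merges. No replicate spread was available, so every difference below compares pools and carries no test.

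The deletion was visible in each table. Junb stood at 268 FPKM in WT and 31.4 in JunB cKO in unperturbed keratinocytes, at 40.8 and 11.7 after hair plucking, and at 33.4 and 15.4 in wounds. Keratinocyte markers led the unperturbed columns, with 8 genes summing to 12032 FPKM in WT and 13180 in JunB cKO against 14.5 and 14.9 for 8 fibroblast markers. The hair plucking samples carry keratinocyte as their tissue label, yet their fibroblast markers summed to 5185 FPKM in WT and 1883 in JunB cKO and their 5 measured skeletal muscle markers to 199 and 25.7, so transcripts of dermis and muscle were present.

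Depth differed between the columns and limits the low values. Genes for odorant, vomeronasal and bitter taste receptors, most of them known from sensory tissue, showed FPKM values mostly in whole steps, and the step gives the reads behind a value: per FPKM and kilobase, 16.9 reads in WT and 4.97 in JunB cKO for unperturbed cells, 16.3 and 12.8 after hair plucking, and 43.3 and 40.2 in wounds. In wounds 88 of 107 values in WT and 30 of 38 in JunB cKO lay within 0.15 of a whole read, and in the other columns all did but 1 in plucked JunB cKO. In unperturbed cells 85.4% of 1185 such genes were above 0 in JunB cKO against 3.97% in WT, at a median of 3 reads, and their part in the higher low-level values of JunB cKO was not tested. After hair plucking only 0.714% in WT and 2.05% in JunB cKO of 1121 were above 0, but those stood at medians of 22.5 and 13.0 reads. For these genes the hair plucking columns thus held mostly 0 and, elsewhere, often 10 or more reads, and values listed at 0 below stand beside that pattern.

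The highest levels belonged to a few ligands. Ccl27a, the keratinocyte chemokine that attracts skin-homing T cells through CCR10, was the highest member in all 6 columns. Its level was 403 FPKM in WT and 367 in JunB cKO in unperturbed keratinocytes, 147 and 156 after hair plucking, and 133 and 132 in wounds. It made up 68.0% of all ligand FPKM in unperturbed WT cells and 22.0% in WT wounds. Cxcl14, a constitutive epithelial chemokine, followed in unperturbed cells at 97.9 and 72.5 FPKM, and stood at 28.6 and 25.8 after hair plucking and 79.5 and 69.9 in wounds. Cxcl16, a membrane-bound ligand of CXCR6, stood at 48.9 and 46.9, at 19.5 and 25.4, and at 14.1 and 20.2 FPKM in the same order. All 3 stayed within 2-fold between the genotypes in every table. The tables were normalised separately, so levels are set side by side only.

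**Figure D1:**
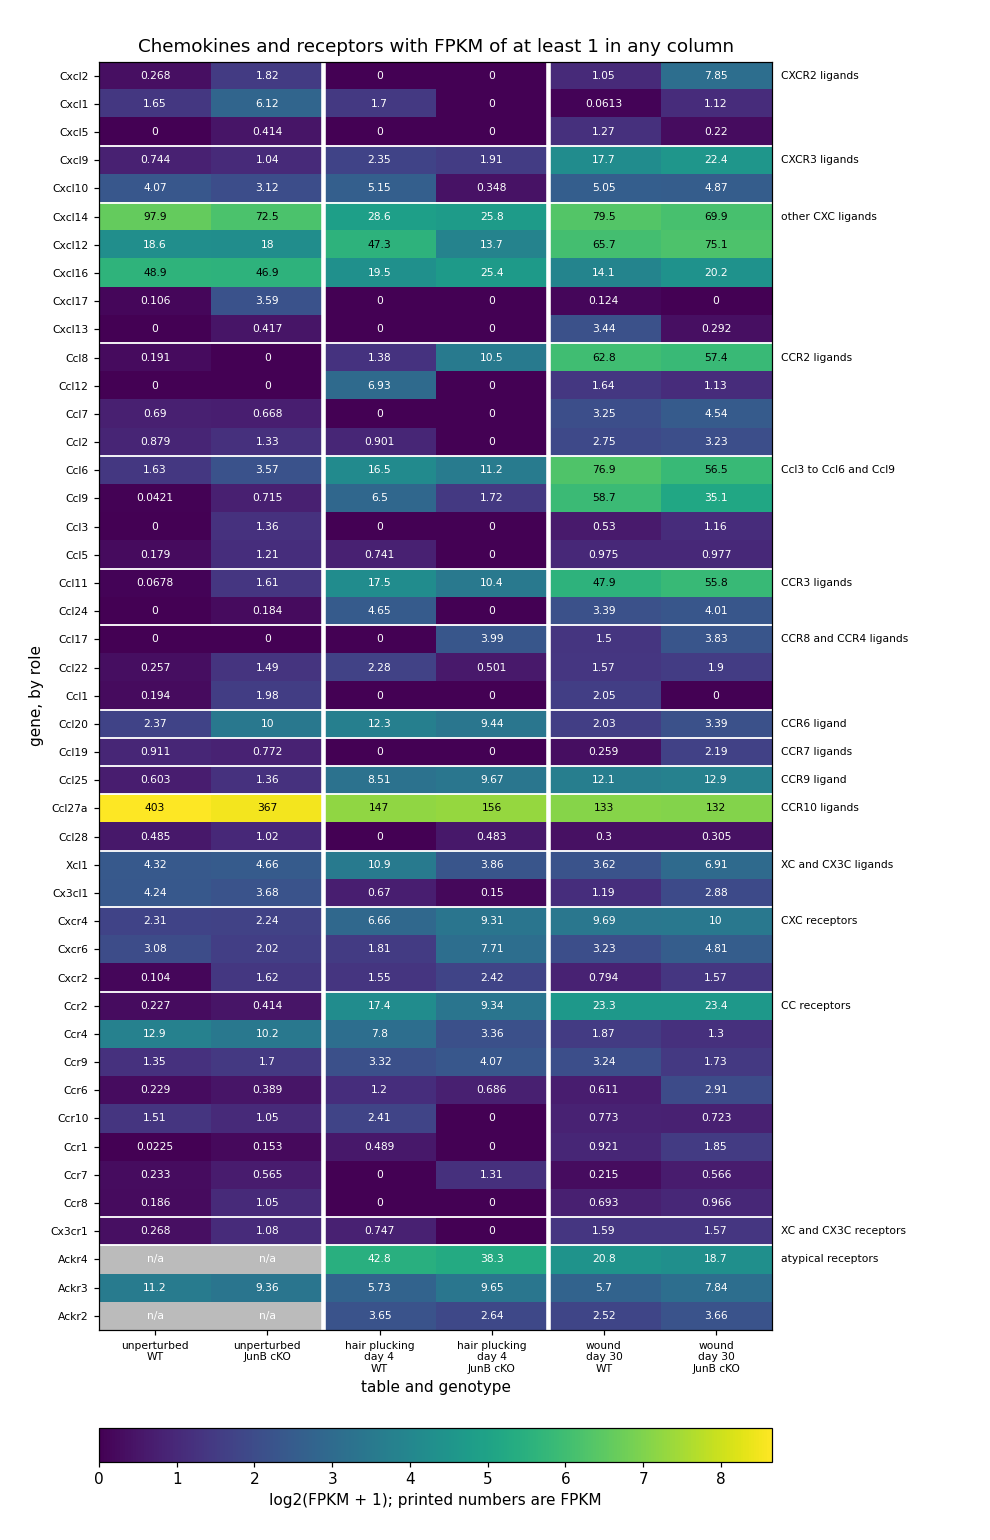
FPKM of the members that reached 1 FPKM in any column, with rows grouped by role and columns by table and genotype; colour shows log2(FPKM + 1) and each printed number is the FPKM of 1 pooled column. Ccl27a is highest in every column, and Ccl6, Ccl8, Ccl9 and Ccl11 stand above 35 FPKM in both wound columns only; grey cells marked n/a are genes absent under that symbol.

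Among receptors, the order differed between the tables. Of those taken by the rule, Ccr4, a receptor of skin-homing T cells, led in unperturbed keratinocytes with 12.9 FPKM in WT and 10.2 in JunB cKO. Ackr3, a scavenger of CXCL12, followed at 11.2 and 9.36. Ackr4, which scavenges CCL19, CCL21 and CCL25, led after hair plucking in both genotypes, at 42.8 and 38.3 FPKM. The unperturbed table lists that gene under the older symbol Ccrl1, outside the rule, at 38.9 and 29.7 FPKM. Ackr4 thus stood above Ccr4 in unperturbed cells too, and Ccr4 led there only among the symbols taken. Ackr2, listed there as Ccbp2, stood at 4.14 and 3.42 FPKM. In wounds Ccr2, the monocyte receptor for CCL2, led at 23.3 and 23.4 FPKM.

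In unperturbed keratinocytes, 8 of 57 members stood at least 2-fold higher in JunB cKO and 0 stood as far below WT, on the log2(FPKM + 1) scale used for all ratios below. Of all loci measured in these cells 9.31% were past this limit upward and 0.858% downward. Among the 30 members with at least 1 FPKM in either genotype the 8 made up 26.7%, against 15.4% higher and 1.42% lower among all such loci. The median log2 ratio was 0.23 over members and 0.13 over all loci. The 8 were the ligands Cxcl17, Ccl20, Cxcl1, Ccl1, Ccl11, Ccl3 and Cxcl2 and the receptor Cxcr2.

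Of these, the CCR6 ligand Ccl20 reached the highest level, with 2.37 FPKM in WT and 10.01 in JunB cKO (log2 ratio 1.71). Cxcl1, which draws neutrophils through CXCR2, stood at 1.65 and 6.12 FPKM (log2 ratio 1.43). Behind these values lay 21 reads in WT and 23 in JunB cKO for Cxcl1, and 23 to 49 and 29 to 61 reads for Ccl20 depending on which of its transcripts is counted. The numbers of reads were thus alike and the FPKM differed, since each FPKM in WT represented 3.39 times the reads it did in JunB cKO. Cxcl17, a mucosal chemokine, went from 0.106 FPKM (1 read) to 3.59 (10 reads). Cxcl2 stood at 0.268 and 1.82 FPKM, Cxcr2, the neutrophil receptor of both, at 0.104 and 1.62, the eosinophil chemokine Ccl11 at 0.0678 and 1.61, the CCR8 ligand Ccl1 at 0.194 and 1.98, and Ccl3 at 0 and 1.36.

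The higher values of Ccl1, Ccl3 and Ccl11 in JunB cKO rested on at most 7 reads each. When the median receptor FPKM of each column (0 in WT, 0.543 in JunB cKO) was subtracted, 4 members stayed at least 2-fold higher, and among members with at least 10 reads in either genotype there were also 4. Cxcl17, Ccl20, Cxcl1 and Ccl1 were those left after the subtraction. Those left by the filter on reads were Ccl20, Cxcl1, Cxcl17 and Cxcr2. Of these, Cxcl17 and Cxcr2 (4 to 5 reads in WT, 16 to 23 in JunB cKO) passed the filter through JunB cKO alone. All 10 neutrophil markers were higher in JunB cKO, with a sum of 5.46 FPKM in WT and 27.3 in JunB cKO, most of it S100a8 and S100a9, which keratinocytes also make. Of all loci in unperturbed cells 56.2% were higher in JunB cKO and 33.8% lower. Ly6g, Csf3r, Retnlg, Ltf and Fpr1 were listed at 0 in WT and at 0.261 to 1.48 FPKM in JunB cKO, around the median receptor FPKM of that column. Other lists of low level were higher there too, with all 11 macrophage and monocyte, all 7 blood endothelium, all 5 B cell and all 6 skeletal muscle markers measured, and the part of such cells or of the column's low-level values in the chemokine values was not tested.

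**Figure D2:**
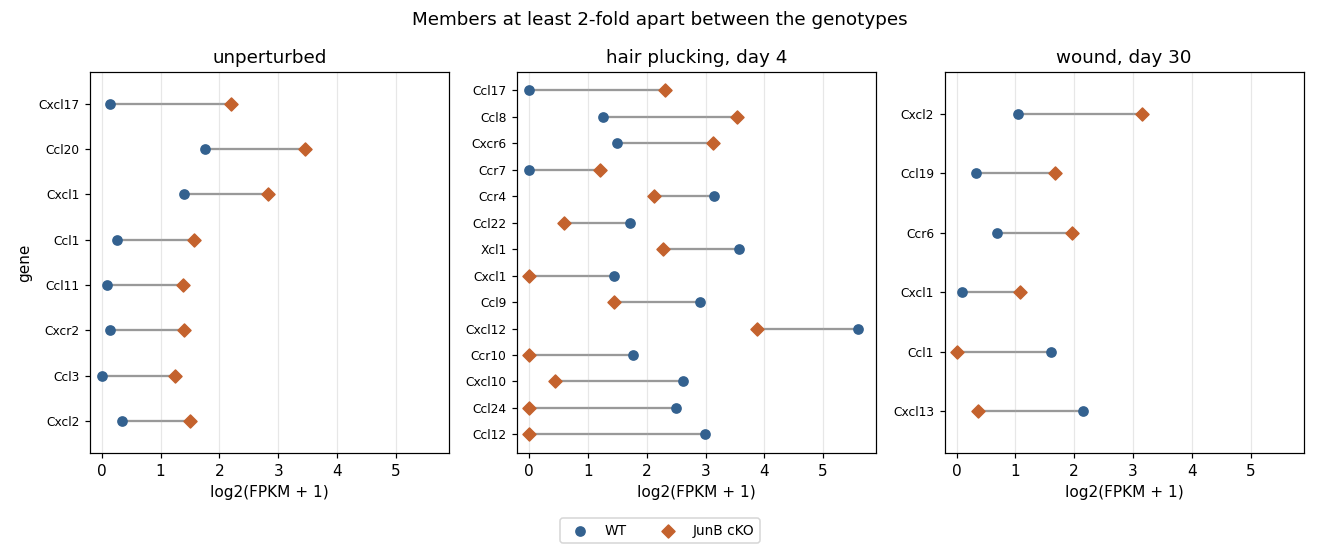
Level of each member that differed at least 2-fold between the genotypes, as log2(FPKM + 1) on the horizontal axis, with WT as circles and JunB cKO as diamonds, 1 pooled value each. In unperturbed cells all 8 lie to the right in JunB cKO, after hair plucking 10 of 14 lie to the left, and in wounds 4 of 6 lie to the right.

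Promoters of 3 neutrophil-attracting ligands are shown because Cxcl1 and Cxcl2 were the pair of neighbouring genes past 2-fold in the same direction in both unperturbed cells and wounds, and those of Ccl20 and Cxcl10 as further members past 2-fold in a table that held the match. NF-kB is the factor best known to induce them under inflammation. Its consensus of 10 bases was searched on both strands in windows of 300 bases around annotated starts (RefSeq, GRCm38.p6), which were given for 44 members. It matched in 12 of the 44 (27.3%) and in 9.55% of 27025 genes. Ccl1, Ccl9 and Ccr6 also held a match and were past 2-fold in a table, but are not shown. Ackr2, Ccl27a, Ccr1, Ccr3 and Cxcl3 held a match and were past 2-fold in no table. In the sequences below, 120 bases up to the start of each gene, capitals mark the match.
Cxcl1, chr5:90891125-90891244, plus strand: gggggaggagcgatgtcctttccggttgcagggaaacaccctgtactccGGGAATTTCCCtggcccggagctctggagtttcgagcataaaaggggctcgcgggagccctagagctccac
Cxcl2, chr5:90903779-90903898, plus strand: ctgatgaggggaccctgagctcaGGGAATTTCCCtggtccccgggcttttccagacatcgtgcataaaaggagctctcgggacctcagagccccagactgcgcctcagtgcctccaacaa
Cxcl3, chr5:90785981-90786100, plus strand: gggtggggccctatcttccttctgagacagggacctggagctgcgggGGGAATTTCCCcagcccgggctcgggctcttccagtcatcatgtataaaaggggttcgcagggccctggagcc
Ccl20, chr1:83116646-83116765, plus strand: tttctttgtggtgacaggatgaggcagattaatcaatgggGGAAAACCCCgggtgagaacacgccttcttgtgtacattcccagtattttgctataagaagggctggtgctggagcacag
Cxcl10, chr5:92348890-92349009, minus strand: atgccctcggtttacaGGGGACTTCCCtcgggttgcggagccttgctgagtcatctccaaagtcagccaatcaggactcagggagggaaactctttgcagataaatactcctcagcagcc
Cxcl1, Cxcl2 and Cxcl3 shared the same 11 letters, beginning 71, 97 and 73 bases before their starts. Cxcl1 and Cxcl2 were past 2-fold higher in unperturbed cells and wounds, and Cxcl1 was listed at 0 in the plucked JunB cKO column. Cxcl3 reached at most 0.494 FPKM in any column, too low to pass 2-fold on the scale used, so its ratios cannot be compared with theirs. The window of Cxcl15, of the same ligand group, held no match. The match is a description of the sequence and says nothing of binding.

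JunB belongs to the AP-1 family, whose core sequence TGANTCA was searched on both strands in the same windows. It matched in 8 of 44 members (18.2%) and in 8.97% of 27025 genes. Shown are the highest ligand, the wound and plucking ligand Ccl9 and the receptor Ccr4, with 120 bases each and the match in capitals.
Ccl27a, 1 of its annotated starts, chr4:41770213-41770332, minus strand: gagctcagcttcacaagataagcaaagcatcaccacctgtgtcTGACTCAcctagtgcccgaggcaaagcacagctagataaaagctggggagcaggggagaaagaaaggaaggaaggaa
Ccl9, chr11:83578637-83578756, minus strand: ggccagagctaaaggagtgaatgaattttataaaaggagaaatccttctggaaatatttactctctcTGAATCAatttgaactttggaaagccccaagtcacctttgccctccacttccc
Ccr4, chr9:114496625-114496744, minus strand: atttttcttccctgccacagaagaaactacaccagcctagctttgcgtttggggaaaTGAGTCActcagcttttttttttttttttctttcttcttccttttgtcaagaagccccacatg
The genes shown did not move alike: Ccl27a stayed within 2-fold in all tables, Ccl9 was past 2-fold lower after hair plucking only, and Ccr4 stood at a log2 ratio of -0.32 in unperturbed cells, -1.01 after hair plucking and -0.32 in wounds. The Cxcl10 window printed above also held the AP-1 core, unmarked there, beginning 74 bases before its start. Cxcl10 was past 2-fold lower after hair plucking only, at a log2 ratio of -2.19. Ccl27b, Ccl28, Ccr3 and Cxcl9, the other members with a match, stayed within 2-fold in all tables.

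After hair plucking the balance was the other way. Of 61 members, 10 stood past 2-fold below WT in JunB cKO and 4 past 2-fold above it, where 5.65% of all loci were lower and 6.50% higher. Among members with at least 1 FPKM in either genotype these were 33.3% and 13.3% of 30, against 16.0% and 18.4% of all such loci. The median log2 ratio of those 30 members was -0.35, beside 0.03 for all such loci.

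The lower members included ligands that draw monocytes, eosinophils and T cells, and the T cell receptors for chemokines Ccr4 and Ccr10. The monocyte chemokine Ccl12 stood at 6.93 FPKM in WT, about 38 reads, and was listed at 0 in JunB cKO (log2 ratio -2.99, the widest of the members described here in any table). The eosinophil chemokine Ccl24 stood at 4.65 FPKM and was likewise listed at 0, as were Ccr10, the receptor for CCL27, from 2.41 FPKM and Cxcl1 from 1.70. These 4 genes were all of the 28 members with at least 1 FPKM in WT that were listed at 0 in JunB cKO (14.3%), where 7.10% of all such loci were.

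Cxcl10, the interferon-induced CXCR3 ligand, stood at 5.15 and 0.348 FPKM (75 to 97 and 4 to 5 reads), while its neighbour Cxcl9, also a CXCR3 ligand, stood at 2.35 and 1.91. Cxcl12, the stromal ligand of CXCR4, stood at 47.3 and 13.7 FPKM (log2 ratio -1.71), against 18.6 and 17.99 in unperturbed cells and 65.7 and 75.1 in wounds. Ccl9, a ligand of CCR1, stood at 6.496 and 1.72 FPKM. The T cell product Xcl1 stood at 10.9 and 3.86, the CCR4 ligand Ccl22 at 2.28 and 0.501, and Ccr4 itself at 7.80 and 3.36 FPKM. Ccr2, Ccl11 and Ccl6 stood at 17.4 and 9.34, 17.5 and 10.4, and 16.5 and 11.2 FPKM, lower in JunB cKO but within 2-fold.

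The 4 members at least 2-fold higher after hair plucking were Ccl17, Ccl8, Cxcr6 and Ccr7. Ccl17, which shares the receptor CCR4 with Ccl22, was listed at 0 in WT and stood at 3.99 FPKM (16 reads) in JunB cKO, so that the pair of CCR4 ligands stood on opposite sides. Ccl8, from the same chromosome 11 cluster as Ccl12, stood at 1.38 and 10.5 FPKM (7 and 42 reads). Cxcr6, the receptor for CXCL16, stood at 1.81 and 7.71 FPKM, and Ccr7, the receptor that guides dendritic cells to lymph nodes, was listed at 0 in WT and stood at 1.31 in JunB cKO. Ccl17 and Ccr7 made up 2 of the 23 members with at least 1 FPKM in JunB cKO (8.70%), where 9.85% of all such loci were listed at 0 in WT.

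Markers of several other cell types differed too. Of 12 macrophage and monocyte markers 11 were at least 2-fold lower in JunB cKO, and their sum was 329 FPKM in WT and 106 in JunB cKO. All 8 fibroblast markers and all 5 measured skeletal muscle markers were lower too. Of all loci after hair plucking 19.8% were lower in JunB cKO, 21.6% higher and 58.5% at 0 in both genotypes. T cell markers summed to 81.5 and 44.8 FPKM. Of the 11 markers 2 were higher, 6 lower and 3 at 0 in both, with a median log2 ratio of -0.09. Mast cell markers summed to 46.2 FPKM in WT and 61.4 in JunB cKO, with 2 higher, 2 lower and 3 at 0 in both. S100a8 was listed at 0 in WT and stood at 152 FPKM in JunB cKO, and S100a9 stood at 2.56 and 250.4, while the more neutrophil-restricted Ly6g, Retnlg, Ngp, Camp, Ltf and Fpr1 were listed at 0 in both genotypes. The other 2 neutrophil markers were lower in JunB cKO, Csf3r at 3.55 and 0.551 FPKM and Mmp8 at 0.980 and 0.207. In pooled tissue, fewer cells of a type and less RNA per cell cannot be told apart.

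**Figure D3:**
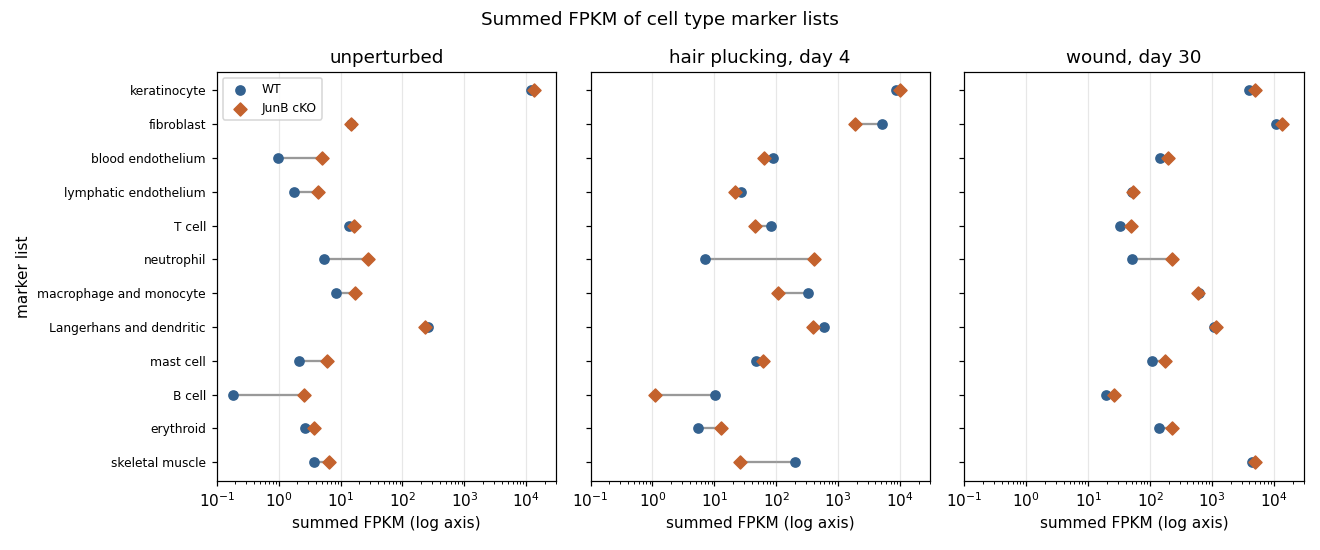
Summed FPKM of cell type marker lists on a log axis, with WT as circles and JunB cKO as diamonds in each of the 3 tables. After hair plucking the fibroblast, macrophage and muscle sums lie lower in JunB cKO, and in wounds they lie close together. The neutrophil list stands in wounds at 51.3 in WT and 226 in JunB cKO, most of it S100a8 and S100a9, which keratinocytes also make.

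In wounds at day 30 the genotypes were closer. Of 61 members 4 stood past 2-fold above WT in JunB cKO and 2 past 2-fold below it, where 2.16% of all loci were higher and 1.98% lower. Of the 39 members with at least 1 FPKM in either genotype these were 10.3% and 5.13%, against 5.68% and 5.19% of all such loci. The median log2 ratio of those 39 was 0.19, beside 0.01 for all such loci.

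Cxcl2, the neutrophil chemokine next to Cxcl1, stood at 1.05 FPKM in WT and 7.85 in JunB cKO (log2 ratio 2.11), on 41 to 76 and 287 to 523 reads. Cxcl1 stood at 0.0613 and 1.12 FPKM, or 2 and 34 reads. Its log2 ratio of 1.001 lay at the limit and became 0.99 when the table was centred on its median locus. Cxcl5, another ligand of CXCR2 in the same cluster, stood at 1.27 and 0.220 FPKM, on the opposite side but within 2-fold. Their receptor Cxcr2 stood at 0.794 and 1.57 FPKM. In the same columns S100a8 stood at 36.7 and 139 FPKM and S100a9 at 10.9 and 77.5. These made up most of the neutrophil list's sum, and keratinocytes also make them. Csf3r, the granulocyte growth factor receptor, stood at 1.80 and 5.60, while Ly6g was listed at 0 in both. Of the 10 neutrophil markers 7 were higher in JunB cKO and 2 lower. The lower were Mmp8 at 0.893 and 0.533 FPKM and Ngp at 0.0903 and 0.0247. Of all loci in wounds 27.1% were higher in JunB cKO, 29.1% lower and 43.7% at 0 in both genotypes. The part of neutrophils in the chemokine values was not tested.

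The other 2 higher members were a receptor and a ligand of lymphocytes and dendritic cells. Ccr6, the receptor for CCL20, stood at 0.611 and 2.91 FPKM, and its ligand Ccl20 at 2.03 and 3.39. The CCR7 ligand Ccl19 stood at 0.259 and 2.19 FPKM. T cell markers summed to 32.3 FPKM in WT and 48.7 in JunB cKO, with Trbc2 alone at 9.15 and 21.4. Of the 11 markers 7 were higher and 4 lower, with a median log2 ratio of 0.09. The lower members were Cxcl13, which attracts B cells through CXCR5, at 3.44 and 0.292 FPKM (142 and 11 reads), and Ccl1, at 2.05 FPKM (28 to 37 reads) in WT and listed at 0 in JunB cKO.

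After Ccl27a, the highest CC ligands of wounds were Ccl6, Ccl8, Ccl9 and Ccl11, which stayed within 2-fold between the genotypes. Ccl8 stood at 62.8 and 57.4 FPKM, Ccl6 at 76.9 and 56.5, Ccl9 at 58.7 and 35.1 and Ccl11 at 47.9 and 55.8. Ccl9 had the widest difference of these 4, with a log2 ratio of -0.73. The macrophage and monocyte marker sum was 604 FPKM in WT and 591 in JunB cKO.

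**Figure D4:**
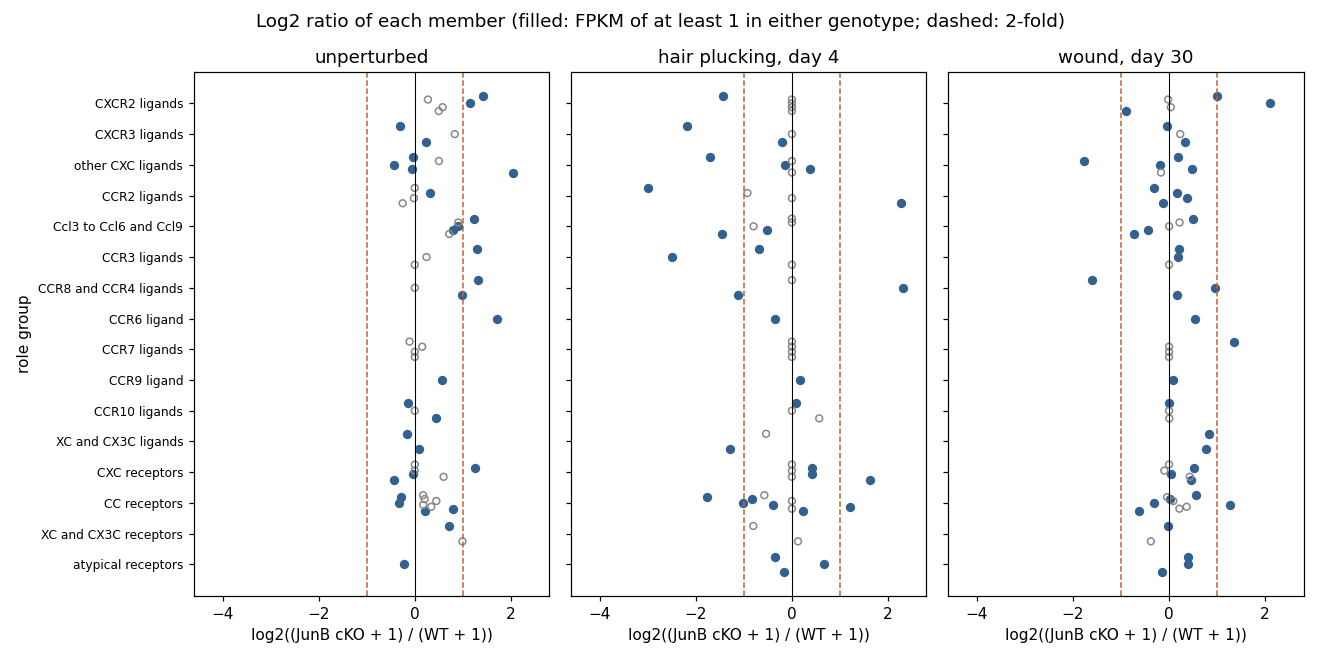
Log2 ratio of JunB cKO over WT for each member, computed as log2((JunB cKO + 1) / (WT + 1)), by role group and table; filled points reached 1 FPKM in either genotype and dashed lines mark 2-fold. The row labelled CCR2 ligands holds Ccl2, Ccl7, Ccl8 and Ccl12, and their receptor use was not tested here. These 4 spread most after hair plucking, from -2.99 for Ccl12 to 2.27 for Ccl8. The CC receptors shown lay in that table between -1.77 for Ccr10 and 1.21 for Ccr7.

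By role, the 5 CXCR2 ligands taken by the rule summed to 1.91 FPKM in WT and 9.05 in JunB cKO in unperturbed cells, to 1.70 and 0 after hair plucking and to 2.47 and 9.29 in wounds. The 5 ligands Ccl3, Ccl4, Ccl5, Ccl6 and Ccl9 summed to 1.85 and 7.73, to 23.8 and 12.9 after hair plucking, and to 138 and 94.6 in wounds. The 9 CC receptors described here summed to 16.7 and 15.9 FPKM in unperturbed cells, 32.6 and 18.8 after hair plucking and 31.8 and 33.8 in wounds. The 3 CXCR3 ligands differed most after hair plucking, at 7.49 and 2.25 FPKM. The CCR9 ligand Ccl25 stayed within 2-fold on the log2(FPKM + 1) scale in every table, at 0.603 and 1.36, at 8.51 and 9.67, and at 12.1 and 12.9 FPKM.

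Many members lie next to each other in the genome. Of 58 members placed in GENCODE M21 (GRCm38), 37 lay in 10 clusters with gaps under 300 kb. Cxcl1 (ENSMUSG00000029380, chr5:90891241-90893115) and Cxcl2 (ENSMUSG00000058427, chr5:90903871-90905938) lay 10.8 kb apart on the plus strand. Ccl9 and Ccl6 lay 9.25 kb apart on chromosome 11 and were on the same side in each table: higher in JunB cKO in unperturbed cells (log2 ratios 0.72 and 0.80), lower after hair plucking (-1.46 and -0.52) and lower in wounds (-0.73 and -0.44). Neighbours also parted. Ccl12 and Ccl8 lay 11.8 kb apart and stood at log2 ratios of -2.99 and 2.27 after hair plucking.

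**Figure D5:**
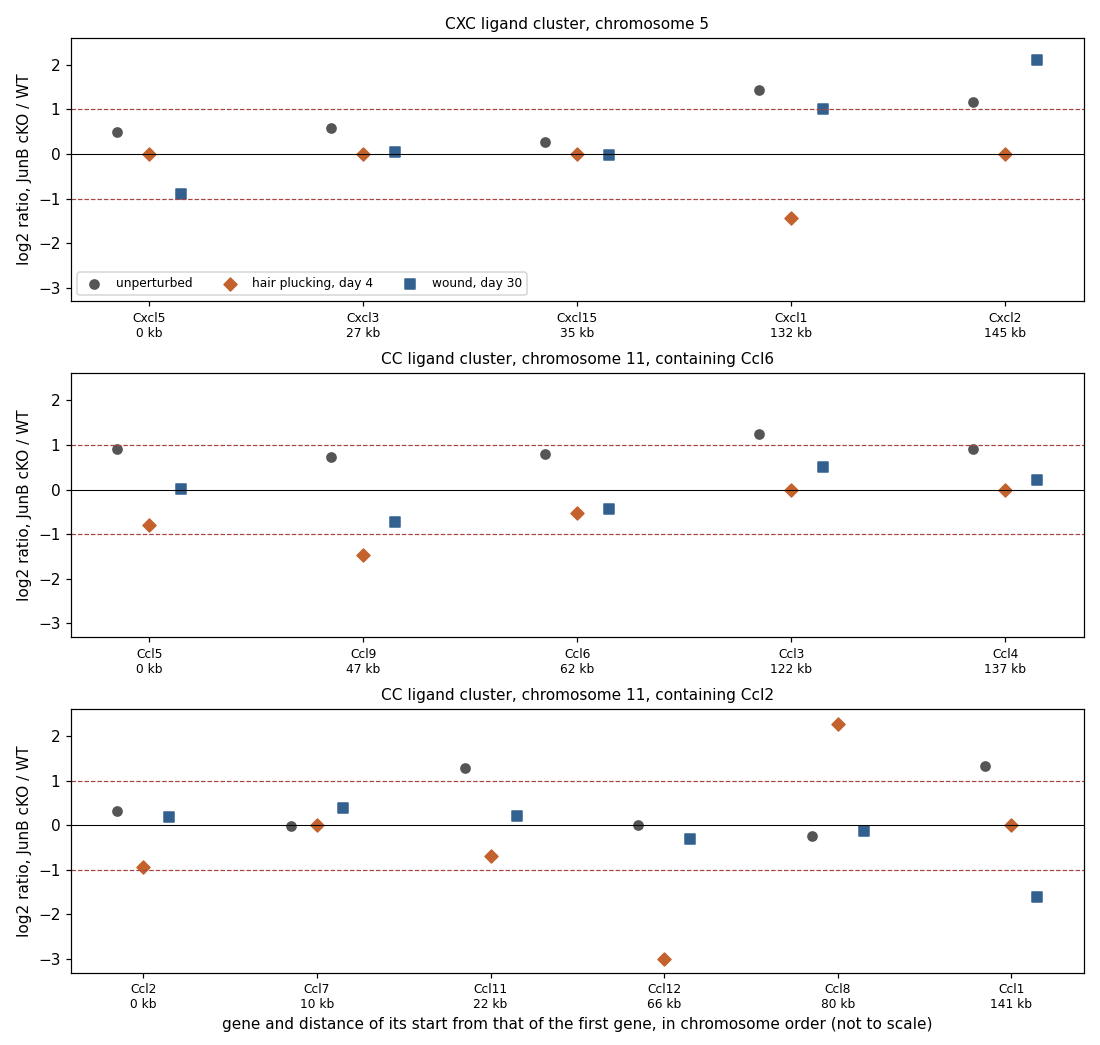
Log2 ratio of JunB cKO over WT for the members of 3 ligand clusters, in chromosome order with the distance of each start from the first, for the 3 tables; dashed lines mark 2-fold. Cxcl1 and Cxcl2 lie above the other CXC members in wounds, and Ccl12 and Ccl8 lie on opposite sides after hair plucking.

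Over the whole study 24 members were past 2-fold at least once and 3 more than once. Shares of all loci are given above for each table alone and not across tables, so these counts only describe the members. Cxcl1 and Cxcl2 were higher in JunB cKO in both unperturbed cells and wounds, while Ccl1 and Cxcl1 took opposite directions in different tables. In unperturbed cells Cxcl2 rested on 4 to 8 reads in WT and 8 to 15 in JunB cKO. Its log2 ratio there fell to 0.84 after subtraction of the median receptor FPKM. Cxcl1 had 21 and 23 reads in those cells and lay at the limit in wounds, at 1.001. Cxcr1, Ccl26, Ccl21b, Ccl21c and Ccl27b were listed at 0 in all columns. Ccl21b and Ccl27b are near copies of Ccl21a and Ccl27a (99.5% and 99.3% identical over their aligned transcripts), so reads of a pair cannot be assigned with certainty.

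Other genes of the pathway gave a different count in each table. Of 36 measured genes that carry the chemokine signal inside the cell, such as G protein subunits, arrestins and Rac GTPases, 0 were past 2-fold in unperturbed cells, where 9.31% of all loci were higher and 0.858% lower. In wounds 0 of 35 were, where 2.16% of all loci were higher and 1.98% lower. After hair plucking 9 of 35 were past 2-fold lower and 2 higher, where 5.65% and 6.50% of all loci were. Among 11 related molecules outside the rule, the integrin chain Itgb2 of leukocytes stood at 20.4 and 1.85 FPKM after hair plucking and at 30.0 and 36.6 in wounds, and Dpp4, a peptidase that trims chemokines, at 46.0 and 5.45 and at 68.2 and 52.5. Ppbp and Pf4 are chemokines whose symbols the rule does not take. Ppbp stood at 0 and 2.51 FPKM in unperturbed cells and at 0.736 and 0.286 in wounds. Pf4 stood at 0 and 1.04 and at 32.1 and 33.3. Both were listed at 0 in both genotypes after hair plucking. Of 17 measured cytokines that induce or restrain chemokines 2 were past 2-fold higher and 0 lower in unperturbed cells, of 16 after hair plucking 3 higher and 3 lower, and of 16 in wounds 2 higher and 1 lower. Il1b stood at 2.83 and 5.16 FPKM in unperturbed cells, was listed at 0 in JunB cKO after hair plucking from 6.43 in WT, and stood at 4.25 and 13.7 in wounds. Il1f6, a member of the IL-36 group, was at least 2-fold higher in JunB cKO in all 3 tables, at 0.260 and 1.76, 10.9 and 27.0, and 1.02 and 3.87 FPKM. Its unperturbed values were low, in a table where the median receptor FPKM was 0 in WT and 0.543 in JunB cKO. The reads behind Il1f6 were not estimated. Among the lower were Il1f8 after hair plucking, at 40.0 and 19.0 FPKM, and Tnf in wounds, at 2.12 and 0.558. Of 13 regulators of NF-kB and interferon responses, 9 were lower in unperturbed JunB cKO cells, none past 2-fold, and the median ratio was -0.36 on the log2 scale. Of 11 measured after hair plucking 8 were higher, 2 of them past 2-fold, and 1 was past 2-fold lower. In wounds 9 of 11 were higher, none past 2-fold, with a median of 0.19. Of all loci 33.8% were lower in unperturbed JunB cKO cells, 21.6% were higher after hair plucking and 27.1% were higher in wounds. Loci at 0 in both genotypes made up 58.5% of all loci after hair plucking and 43.7% in wounds.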

How the data were processed

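RNA was made into ribosomal-depleted, stranded libraries and sequenced single-end by the authors, who aligned reads with TopHat (2.1.0) or HISAT2 to GRCm38 and ran Cufflinks (2.2.1) and Cuffdiff. The deposited tables give FPKM per locus, 1 value per genotype, and the authors' own fold changes, test statistics and p-values, which were not used. No per-sample column was left unused. The values of 3 tables were normalised separately.

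Members were found by symbol, with the locus of largest summed FPKM kept, and 1 gene that the rule takes is not reported here and is left out of all member counts. Ratios were log2((JunB cKO + 1) / (WT + 1)), and 2-fold on that scale was the limit. Reads were estimated from the FPKM step of receptor genes of 850 to 1100 bases, as FPKM times the length less 199 bases, in kilobases, divided by the step, with the lengths of GENCODE M21 coding transcripts of at least 500 bases. Such reads are approximate, may be PCR copies, and in wounds merge 2 libraries. All members could be named, leading with those past 2-fold, then those of at least 10 FPKM, then the highest of each role group. The members, roles and marker lists were chosen with earlier results of these data known. With pooled values no test was made. Python 3 with pandas, numpy, Biopython and matplotlib was used. Exons of Ccl27a, Cxcl10, Cxcl16, Ccl25, Xcl1, Ackr4 and Ccr9, among others, overlap another gene on the opposite strand, and whether counting used strand is not given in the sources used here.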

Additional observations from a re-analysis of the deposited data

Results flagged for a closer look

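Ccl1 and Cxcl1 were past 2-fold in opposite directions in different tables, a difference that was not tested, since each genotype has 1 pooled value. Ccl1 had a log2 ratio of 1.32 in unperturbed keratinocytes and -1.61 in wounds. Cxcl1 had 1.43 in unperturbed keratinocytes, -1.43 after hair plucking and 1.001 in wounds.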

How the results depend on the processing

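No paired analysis was possible because each table holds 1 pooled value per genotype. In unperturbed keratinocytes the 8 members at least 2-fold higher became 26 and 28 with pseudocounts of 0.1 and 0.01, 4 after subtraction of the median receptor FPKM, 4 among members with at least 10 estimated reads (an alternative chosen after seeing the data), 18 at a 1.5-fold limit and 1 at 4-fold. The 0 lower became 1 with either pseudocount. The median log2 ratio, 0.23, became 0.65 and 0.84 with pseudocounts of 0.1 and 0.01, 0.38 among members of at least 1 FPKM, 0.38 after centring and 0 after subtraction. After hair plucking the 4 higher and 10 lower became 2 and 3 at a 4-fold limit, and the median of 0 became -0.35 among members of at least 1 FPKM and -0.35 among those with at least 10 reads. In wounds the 4 higher and 2 lower became 9 and 5 with a pseudocount of 0.1, 10 and 6 with 0.01, 7 and 5 at 1.5-fold and 1 and 0 at 4-fold, and the median of 0.04 became 0.19 among members of at least 1 FPKM and 0.18 among those with at least 10 reads. These filters and limits change which members are counted, and the small pseudocounts widen ratios of values near 0. Of 140 recomputed ratios of members past 2-fold, 0 changed sign and 5 fell below the limit. These were Ccl11, Ccl3, Cxcl2 and Cxcr2 in unperturbed cells after subtraction and Cxcl1 in wounds after centring. Most of the 140 could not change in this way. A smaller pseudocount can only widen a ratio, and FPKM summed over all loci of a symbol returned the main values. Subtraction changed nothing after hair plucking and in wounds, where the median receptor FPKM was 0. Only centring, and subtraction in unperturbed cells, could bring a ratio below the limit, so the count of signs says little. Depth limits values under about 1 FPKM in unperturbed JunB cKO cells most.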
